A study of Sus scrofa with 17 samples.

Results

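The genes described here encode proteins of the cytosolic ribosome and were followed in the longissimus muscle of weaned piglets. A list of 53 gene symbols was matched to the rows of the deposited count table by Ensembl identifier or, where the identifier carried no symbol, by position, and 49 of the 53 had a row of their own among the 31908 rows. Of these 49, 30 belong to the large ribosomal subunit and 19 to the small subunit, 33 were named by identifier and 16 by position. RPL22, RPS10 and RPS14 lie within rows that carry other names (ICMT, NUDT3 and CD74) and no row was found for RPL9, so these 4 genes were not analysed. All 49 passed the filter on low counts.

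The animals were male Large White × Duroc piglets that were 28 days old when they entered the trial, were kept singly in metabolic cages, and were pair-fed for 2 weeks after 5 days of adaptation. The 6 control piglets received a wheat, maize and soybean meal diet. In the UL diet, given to 6 piglets, 7% of that diet was replaced by Ulva lactuca, a green seaweed. The 5 ULU piglets received the UL diet with 0.01% ulvan lyase, an enzyme that cuts ulvan, a polysaccharide of the seaweed cell wall. The 3 diets were compared in pairs, to ask how the seaweed, with or without the enzyme, altered muscle RNA. Each library was made from the muscle of 1 piglet.

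Ribosomal proteins and ribosomal RNA together form the ribosome, the machine that translates mRNA into protein. Their mRNAs start with a run of pyrimidines, the 5′ terminal oligopyrimidine tract, through which growth signals acting by way of mTOR control their translation, and the proteins are made in matched amounts. In skeletal muscle, the number of ribosomes is one determinant of the capacity for protein synthesis, and it is known to change with feeding and growth.

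The libraries held 16137365 to 26546810 counted reads. The muscle label fitted the data, since the 10 muscle fibre markers tested summed to between 151116 and 365656 CPM (reads of a gene scaled to a common library size with TMM factors). Markers of other cells were far lower. Their sums were 31.3 to 223.6 CPM for 11 leukocyte genes, 124.2 to 299.7 CPM for 7 endothelial genes, 25.2 to 578.4 CPM for 4 adipocyte genes, 297.5 to 507.6 CPM for 4 smooth muscle genes, 43.0 to 71.4 CPM for 4 satellite cell genes and 19.9 to 90.8 CPM for 3 erythroid genes, whereas 7 fibroblast genes summed to between 2801 and 8343 CPM. In whole muscle, a smaller share of a cell type and less RNA per cell cannot be told apart.

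The ribosomal protein genes were among the more abundant transcripts of this muscle. Their summed share of the counted reads, as mean ± SD, was 1.85% ± 0.0574 in the 6 control piglets, 2.12% ± 0.246 in the 6 UL piglets and 1.68% ± 0.225 in the 5 ULU piglets, with ranges of 1.75% to 1.90%, 1.88% to 2.56% and 1.43% to 2.03%. The diets overlapped, and a high share in UL came with a wide spread. By counts per length (CPM per 1000 exonic bases, averaged over all 17 libraries), RPS24 lay above 90.6% of the 14203 genes tested and RPL10A above 7.60%, and the other 47 were higher than both. The lengths are those of all annotated exons of a row, from 494 bases for RPLP2 to 15511 for RPS24, so the order of the levels depends on the annotation. Reads placed at several sites were left out by the authors, and ribosomal protein genes have many near-identical copies in the genome, so the level of any 1 gene may be understated.

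RPLP1 and RPLP0, proteins of the stalk, the flexible arm of the large subunit that brings in translation factors, led the list. RPLP2, the other stalk protein, ranked 11 with 369.4 CPM per 1000 exonic bases. RPLP1 had the highest level per length, 4602 CPM per 1000 exonic bases, and ranged from 2598 to 7912 over the libraries. RPLP0, the base of the stalk, followed with 1018 (754 to 1324), so the ranges of the 2 genes did not overlap. RPS7, a small subunit protein, came next at 754 with a range of 498 to 1078, which overlapped that of RPLP0. RPL23 and RPL34, of the large subunit, had 637.6 and 619.8, and the ranges of both overlapped that of RPS7.

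At the other end of the order were RPS19 (42.6 CPM per 1000 exonic bases), RPL35 (30.6), RPL28 (23.6), RPS24 (20.4) and RPL10A (0.164). The row of RPL10A had only 6 to 37 reads per library, 12% of its exonic bases lay in the RefSeq gene of that name and 48.8% were shared with FANCE, so its values cannot be assigned to RPL10A with confidence. A low share in the named RefSeq gene was not particular to RPL10A, and only 29 of the 49 rows reached 50%. The share was 7.2% for RPS20, 10.5% for RPL35, 15.5% for RPL37, 18.55% for RPL28 and 28.6% for RPS3A. Exonic bases shared with another gene were found for 24 of the 49 rows, with the largest shares for RPL26 (85.6%, with NDEL1) and RPL5 (60.7%, with DIPK1A). The counts were made without strand, and reads from such overlaps cannot be told apart.

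**Figure D1:**
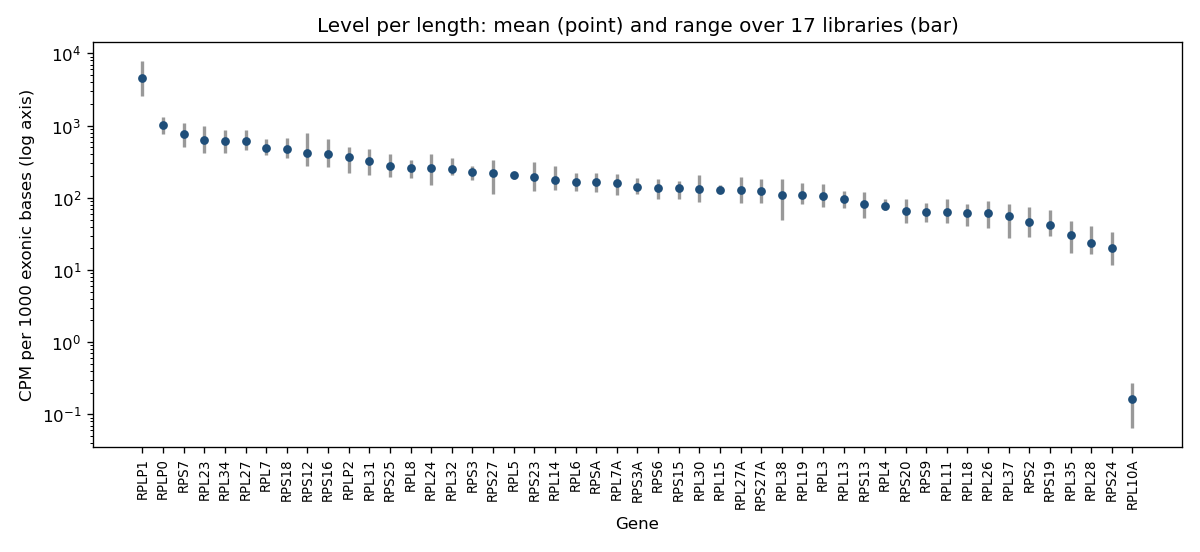
Level of each of the 49 ribosomal protein genes in CPM per 1000 exonic bases, on a log axis, ordered from high to low; points are means and bars the range over 17 libraries. RPLP1 stands above all others at 4602, most genes lie between 20 and 1000, and the row of RPL10A lies apart at 0.164.

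In several libraries most of the 49 genes lay on the same side of their own means, with 48 above in UL piglet 28 and 4 in ULU piglet 44. In others the genes were divided, with 26 above in control piglet 25 and in UL piglet 27. Each library was placed by the median, over the genes, of log2 CPM minus the gene's own mean over the 17 libraries. The medians of the control libraries ran from −0.36 to 0.05, those of UL from 0.01 to 0.54, and those of ULU from −0.41 to 0.08. The diets therefore overlapped, with UL piglets 28 and 32 high and control piglets 22 and 26 and ULU piglet 44 low. These medians rest on the TMM factors, where a higher factor lowers the CPM. Factors were 1.21 and 1.18 in control piglets 22 and 26, and 0.952 and 0.936 in UL piglets 28 and 32. That of ULU piglet 44 was 0.994. By share of counted reads, control piglet 22 had 1.88%, above the control mean of 1.85%, and control piglet 26 had 1.75%. The shares were 2.56% and 2.19% in UL piglets 28 and 32 and 1.43% in ULU piglet 44.

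UL piglet 28 had the highest median (0.54) and the highest level of all 17 libraries for 37 of the 49 genes. In UL piglet 32, with a median of 0.37, all 49 genes were above their means. At the low end, ULU piglet 44 had a median of −0.41 and the lowest level of all libraries for 26 genes, and control piglet 26 had a median of −0.36 with 1 gene above its mean. The other 4 UL libraries had medians of 0.01 to 0.12. Those of UL piglets 27 and 29 (0.01 and 0.03) lay within the ranges of control and ULU. UL piglet 31 (0.06) was above all control libraries, and UL piglet 30 (0.12) was above all control and ULU libraries. The large and small subunits behaved alike in this respect, with medians in UL piglet 28 of 0.54 for both and in ULU piglet 44 of −0.39 for the large and −0.48 for the small subunit.

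RPL3 ran against the rest in several of these libraries. It was the 1 gene below its mean in UL piglet 28 (−0.07) and the 1 gene above it in control piglet 26 (0.19). In ULU piglet 44, RPL3 stood 0.29 above its mean, and the other genes above theirs were RPL5 (0.12), RPL10A (0.09) and RPSA (0.07).

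**Figure D2:**
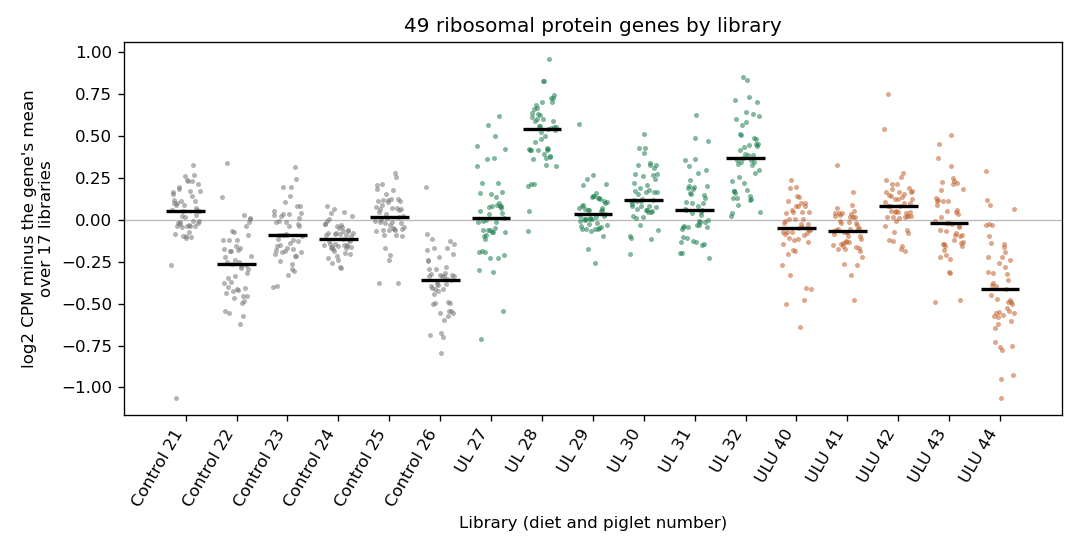
Log2 CPM of each of the 49 ribosomal protein genes minus the gene's mean over the 17 libraries, by library; points are genes and black lines the library medians. UL piglets 28 and 32 (medians 0.54 and 0.37) lie above the others, and ULU piglet 44, control piglet 26 and control piglet 22 (medians −0.41, −0.36 and −0.26) lie below.

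A set of 488 tested genes had under 1000 exonic bases and was not listed as cytosolic ribosomal proteins. Mitochondrial ribosomal protein genes were not left out of it. Its library medians were 0.19 in UL piglet 28 and 0.20 in UL piglet 32. They were −0.18 in control piglet 26, −0.14 in control piglet 22 and −0.15 in ULU piglet 44. These short genes were thus also high and low in these libraries, though control piglet 21 reached 0.18 with a ribosomal protein median of 0.05. Reads on the mitochondrial chromosome made up 14.05% to 15.9% of the counted reads in control, 8.64% to 14.8% in UL and 8.002% to 11.6% in ULU. Within UL, this share was highest in piglets 28 and 32 (13.1% and 14.8%), against 8.64% to 11.6% in the others. It was 14.6% and 15.3% in control piglets 26 and 22, and 11.2% in ULU piglet 44. The part of short genes and of mitochondrial reads in the results below was not tested.

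The seaweed diet alone was compared with control first. Of the 49 genes, 48 had a fitted log2(fold change) above 0 in UL, as had 49.5% of all genes tested, and 1 had a value below 0, as had 50.5%. The median was 0.34 over the 49 genes and −0.00 over all 14203, with quartiles of 0.19 and 0.42 for the ribosomal protein genes. By edgeR none of the 49 passed the adjusted threshold of 0.05, nor did any gene of the whole table (0.0% of 14203). At an unadjusted p-value under 0.05, 31 of the 49 were higher in UL and none was lower, beside 5.84% of all genes that were higher and 5.01% that were lower. The count was 18 of 30 for the large subunit and 13 of 19 for the small subunit, with medians of 0.33 and 0.35. With DESeq2 on the same libraries, 9 of the 49 were called higher in UL, beside 1.22% of all genes called in either direction. They were RPL13, RPL24, RPL28, RPL35, RPL37, RPL38, RPLP2, RPS3A and RPS23. DESeq2 gave RPL10A no adjusted p-value, and RPL24 passed by the narrowest margin (adjusted p = 0.0499995). With DESeq2 on the libraries of these 2 diets alone the count was 10, beside 1.21% of all genes.

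Among the stalk genes, RPLP2 (Sscrofa11.1, chr2:435122-509818, plus strand) had levels of 109.5, 153.2 and 175.8 CPM (lowest, median and highest) in control and of 198.1, 222.1 and 250.8 CPM in UL. Every UL piglet was above every control piglet. The level was 1.52-fold higher in UL (log2(fold change) 0.60 ± 0.14 SE, unadjusted p = 0.000379, adjusted p = 0.152). RPLP0 and RPLP1, the other stalk proteins, had log2(fold change) values of 0.13 ± 0.13 and 0.21 ± 0.20 (SE), respectively, and the diets overlapped for both.

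In the body of the large subunit, RPL35, which sits at the exit of the tunnel for the growing protein chain (chr1:265636637-265645348, minus strand), ranged from 83.0 to 113.9 CPM in control with a median of 103.1, and from 134.4 to 198.3 CPM in UL with a median of 165.3. The diets did not overlap. It was 1.64-fold higher in UL (0.71 ± 0.15 SE, unadjusted p = 0.000103, adjusted p = 0.138), the smallest p-value among the 49. RPL38, which in mice is needed for the translation of a subset of Hox mRNAs (chr12:6884902-6905508, minus strand), had levels of 71.1, 107.7 and 120.5 CPM in control and of 130.8, 178.5 and 220.0 CPM in UL (lowest, median and highest). Its groups were also apart, with a log2(fold change) of 0.76 ± 0.18 (SE; unadjusted p = 0.000522, adjusted p = 0.152).

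RPL13 was the remaining large subunit gene without overlap, with a highest level of 153.4 CPM in control and a lowest of 153.6 CPM in UL (0.35 ± 0.10 SE). The row of RPL10A, with its few reads, also had a high fitted value, from 0.382 to 1.18 CPM in control and from 0.515 to 1.56 CPM in UL. RPL37 (0.60 ± 0.17), RPL28 (0.55 ± 0.15) and RPL24, a protein of a bridge between the subunits (0.52 ± 0.15), had adjusted p-values of 0.186, 0.171 and 0.210, and the 2 diets overlapped for each.

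The small subunit gene with the smallest p-value was RPS23, a protein of the decoding centre (chr2:90679000-90680873, minus strand). Its levels were 93.6, 126.7 and 142.4 CPM in control and 147.4, 164.6 and 225.8 CPM in UL (lowest, median and highest). The diets were apart, and the level was 1.46-fold higher in UL (0.55 ± 0.14 SE, unadjusted p = 0.00122, adjusted p = 0.171). RPS3A did not overlap either, with 470.5 to 571.8 CPM in control against 584.8 to 789.9 CPM in UL (0.35 ± 0.11 SE, adjusted p = 0.233). RPS16, whose tail reaches the tRNA in the ribosome, had a log2(fold change) of 0.49 ± 0.15 (SE, adjusted p = 0.230), with overlap. In all, 6 of the 49 genes had every UL piglet above every control piglet, beside 0.493% of all genes tested.

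Of the genes chosen by role, RPS2 and RPS3, at the entry of the mRNA channel, had log2(fold change) values of 0.42 ± 0.16 and 0.16 ± 0.11 (SE) in UL vs control. RPS6, the substrate of the S6 kinases, had 0.20 ± 0.13, and RPSA, which is also known as a laminin receptor precursor, had 0.18 ± 0.13. RPS19, the gene most often mutated in Diamond-Blackfan anaemia, had 0.39 ± 0.14, and RPS27A, made as a fusion with ubiquitin, had 0.19 ± 0.13. The unadjusted p-value was under 0.05 for RPS2 (0.0150) and RPS19 (0.00943) and not for the other 4 genes.

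Leaving out UL piglets 28 and 32, a choice made after the data were seen, lowered the median to 0.19, with 43 of 49 genes above 0. In that fit 10 of the 49 were below the unadjusted 0.05 in either direction, beside 9.12% of all genes. Without UL piglet 28 alone that count was 20, beside 10.3%. Removing the trend of the counts with gene length in each library gave a median of 0.22 and 23 such genes, beside 10.5%.

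**Figure D3:**
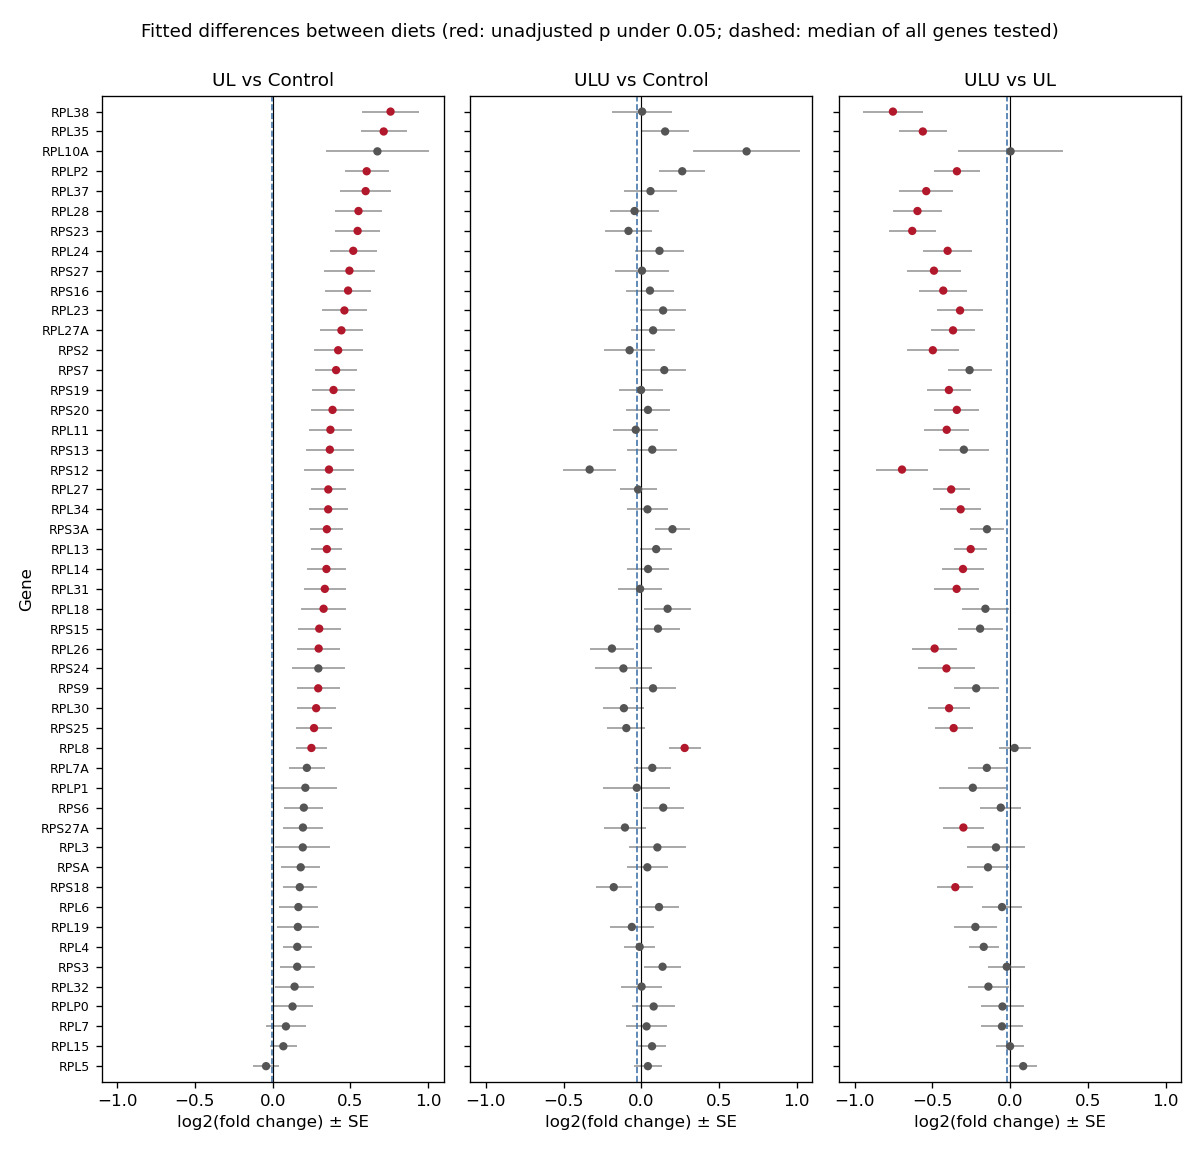
Fitted log2(fold change) ± SE of the 49 ribosomal protein genes in the 3 comparisons, in the order of UL vs control; red points have an unadjusted p-value under 0.05 and the dashed line is the median of all genes tested. In UL vs control 48 of 49 points lie right of 0, in ULU vs UL 46 lie left of 0, and in ULU vs control they lie on both sides.

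The diet with seaweed and enzyme was next set against control. The median log2(fold change) of the 49 genes was 0.04, beside −0.03 over all genes. Of the 49, 32 were above 0, as were 47.0% of all genes, and 17 were below, as were 53.0%. These values rested on single libraries: without ULU piglet 42 the median was −0.00 with 24 genes above 0, without control piglet 26 it was 0.00 with 28, without control piglet 22 and without ULU piglet 43 it was 0.02 with 30 and 29, without control piglet 25 it was 0.07 with 35, without control piglet 21 it was 0.07 with 38, and without ULU piglet 44 it was 0.11 with 40. None of the 49 passed the adjusted p-value by edgeR or by DESeq2, while 423 of all genes did so by edgeR (2.98%), and by DESeq2 7.44% on all libraries and 6.31% on these 2 diets. Asking also for an absolute log2(fold change) of 1 or more, edgeR called 0.415% of all genes. At an unadjusted p-value under 0.05, 1 of the 49 was higher, beside 10.1% of all genes, and none was lower, beside 8.78%. In either direction the count was thus 1, and it became 3 without ULU piglet 44, beside 17.8% of all genes. It was 2 without any 1 of control piglets 22 and 25, UL piglets 27, 28 and 31 and ULU piglet 40, beside 15.7% to 22.4%. No gene had all ULU piglets above or below all control piglets, beside 2.3% and 1.09% of all genes. With library totals in place of TMM factors the median of the 49 was −0.13 and that of all genes −0.21, so the direction of the list depended on the scaling, while its distance from all genes was 0.07 with TMM and 0.09 with library totals.

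The 1 gene was RPL8 (chr4:136105-138977, minus strand), which lies close to the centre where peptide bonds are made. Its levels in the ULU piglets were 414.5, 423.3, 427.4, 521.0 and 396.2 CPM, and in control they were 297.7, 371.7 and 416.0 CPM (lowest, median and highest). The diets overlapped only between the highest control piglet and the 2 lowest ULU piglets. The log2(fold change) was 0.28 ± 0.10 (SE, unadjusted p = 0.0142, adjusted p = 0.143), or 0.095 with library totals as the scaling (adjusted p = 0.514), and RPL8 was also 0.25 ± 0.10 higher in UL vs control (adjusted p = 0.370).

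RPS12, at the beak of the small subunit (chr1:30920808-30923658, minus strand), had the lowest fitted value of this comparison. Its levels in ULU were 217.1, 217.3, 266.2, 286.8 and 210.3 CPM, against 269.1, 292.8 and 376.5 CPM (lowest, median and highest) in control. Most ULU piglets were below the lowest control piglet, and 1 was above it. The log2(fold change) was −0.33 ± 0.17 (SE, unadjusted p = 0.0632 and adjusted p = 0.295 by edgeR). The two-sided exact permutation p, also unadjusted, was 0.0260. RPL26 (−0.19 ± 0.14) and RPS18 (−0.18 ± 0.12) were the next lowest, with adjusted p-values of 0.511 and 0.434.

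RPS3A (0.20 ± 0.11), RPLP2 (0.26 ± 0.15), RPL18 (0.17 ± 0.15), RPS6 (0.14 ± 0.13) and RPS3 (0.14 ± 0.12) completed the 10 genes with the smallest p-values, together with the row of RPL10A (0.68 ± 0.34). Their adjusted p-values lay between 0.297 and 0.602. For RPS3 and RPS6 the sign turned with library totals as the scaling (−0.038 and −0.034).

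Last, the enzyme-supplemented diet was compared with the seaweed alone. Of the 49 genes, 46 had a log2(fold change) below 0 in ULU vs UL, as had 53.0% of all genes, and the median was −0.30, beside −0.02 over all genes. None passed the adjusted p-value by edgeR, beside 0.0352% of all genes, or 0.0141% when an absolute log2(fold change) of 1 was also asked for. At an unadjusted p-value under 0.05, 27 of the 49 were lower in ULU and none was higher, beside 4.68% of all genes that were lower and 6.16% that were higher. The large subunit held 16 of these genes and the small subunit 11. DESeq2 on all libraries called 7 of the 49 lower in ULU (RPL26, RPL27, RPL28, RPL35, RPL38, RPS12 and RPS23), beside 1.57% of all genes, and 4 when only these 2 diets were fitted, beside 1.65%. This comparison and UL vs control share the 6 UL libraries, so the 2 sets of values are not independent.

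The smallest p-value was that of RPS23, with ULU levels of 124.7, 121.7, 146.6, 98.1 and 89.7 CPM. All of them were below the lowest UL level of 147.4 CPM. RPS23 was lower by −0.63 ± 0.15 (log2(fold change) ± SE, unadjusted p = 0.000558, adjusted p = 0.150; two-sided exact permutation p = 0.00433).

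RPL38 had 130.5, 112.5, 124.4, 99.2 and 58.9 CPM in ULU, and its highest level was just below the lowest of UL, 130.8 CPM. The log2(fold change) was −0.75 ± 0.19 (SE, adjusted p = 0.180), the lowest of the 49. RPL30 was the remaining gene without overlap, with at most 220.2 CPM in ULU and at least 222.1 CPM in UL (−0.39 ± 0.13 SE, adjusted p = 0.288). The count of 3 such genes among 49 stands beside 0.662% of all genes tested, and none of the 49 had every ULU piglet above every UL piglet, beside 1.09%.

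RPS12 had UL levels of 273.1, 341.8 and 588.6 CPM (lowest, median and highest), and only ULU piglet 43, with 286.8 CPM, reached into that range. Its log2(fold change) was −0.70 ± 0.17 (SE, unadjusted p = 0.000611, adjusted p = 0.156). For RPL28 (−0.60 ± 0.16), RPL35 (−0.56 ± 0.15), RPL37 (−0.54 ± 0.18), RPS2 (−0.50 ± 0.17), RPL26, also at the exit tunnel (−0.49 ± 0.14), RPL27 (−0.38 ± 0.12) and RPS18 (−0.35 ± 0.12), the diets overlapped and the adjusted p-values were 0.180 to 0.284.

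Without UL piglets 28 and 32, the median of ULU vs UL was −0.17. In that fit 7 of the 49 were below the unadjusted 0.05 in either direction, beside 7.13% of all genes. The count was 16 without UL piglet 28 and 16 without ULU piglet 44, beside 9.75% and 9.77%. With the length trend removed the median was −0.20 and the count 19, beside 11.6%.

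**Figure D4:**
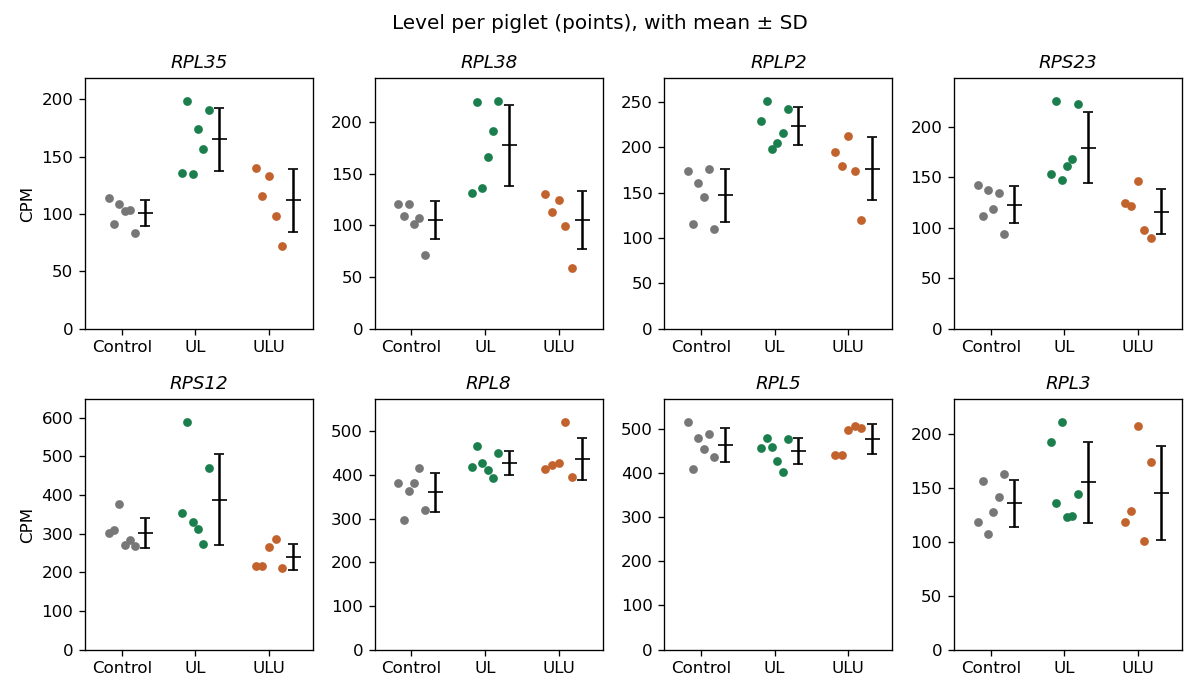
CPM per piglet for 8 ribosomal protein genes in control (n = 6), UL (n = 6) and ULU (n = 5), with the mean and SD beside the points. RPL35, RPL38, RPLP2 and RPS23 have every UL piglet above every control piglet, and RPL5 and RPL3 overlap between all diets.

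Some members varied little between diets. RPL5, which with RPL11 carries the 5S ribosomal RNA into the ribosome and can bind MDM2, the brake on p53 (chr4:124358592-124367647, minus strand), had mean levels of 464.6 ± 38, 451.2 ± 29.6 and 478.3 ± 33.7 CPM in control, UL and ULU (SD, n = 6, 6 and 5). It was the 1 gene below 0 in UL vs control (−0.04 ± 0.09 SE, unadjusted p = 0.630) and the highest in ULU vs UL (0.08 ± 0.09 SE). Its partner RPL11 had 273.0 ± 31.1, 353.2 ± 80.5 and 266.2 ± 40.3 CPM (SD), with log2(fold change) values of 0.37 ± 0.14 in UL vs control and −0.41 ± 0.15 for ULU vs UL (SE; unadjusted p = 0.0149 and 0.0117). RPL15 (0.07 ± 0.09) and RPL7 (0.09 ± 0.13) were the next lowest in UL vs control.

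RPL3, which reaches towards the peptidyl transferase centre (chr5:8922665-8929767, plus strand), has a paralog, RPL3L, that is made in striated muscle. RPL3 had 135.6 ± 21.5, 155.1 ± 37.5 and 145.6 ± 43.6 CPM in control, UL and ULU (SD, n = 6, 6 and 5), and the diets overlapped in all comparisons. RPL3L had 128.9 ± 29.3, 165.2 ± 16.98 and 197.3 ± 40.6 CPM. It rose in ULU vs control, where 2.98% of all genes passed the adjusted p-value, by 0.61 ± 0.15 (log2(fold change) ± SE, adjusted p = 0.0397). Its difference in UL vs control was 0.36 ± 0.15 (adjusted p = 0.395) and in ULU vs UL 0.26 ± 0.15 (adjusted p = 0.586). The 5 paralogs tested had medians of 0.22, 0.04 and −0.14 for UL and then ULU vs control and for ULU vs UL. Of the others, RPL22L1 (−0.34 ± 0.19) and RPS27L (0.03 ± 0.13) did not pass the test in ULU vs control (adjusted p = 0.358 and 0.920).

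The diet with the highest mean level was UL for 47 of the 49 genes and ULU for 2. The lowest mean was in control for 31 genes, in ULU for 17 and in UL for 1. For none of the 49 was the control mean the highest. These counts use means in TMM CPM and were not made for all genes. With library totals as the scaling, 47 of the 49 had a log2(fold change) above 0 in UL vs control. In ULU vs control 44 were below 0, where the median of all genes was −0.21.

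Ribosomal protein genes outside the list of 53 had medians close to those of the 49. The 19 that could be tested had medians of 0.32 in UL vs control, −0.04 in ULU vs control and −0.34 in ULU vs UL, and for 13, 1 and 10 of them the unadjusted p-value was below 0.05, beside 10.8%, 18.9% and 10.8% of all genes. None passed the adjusted p-value by edgeR in any comparison. DESeq2 on all libraries called 1, 0 and 7, beside 1.22%, 7.44% and 1.57% of all genes. RPS21 had the smallest p-values of these 19 genes, with 0.64 ± 0.15 for UL vs control and −0.72 ± 0.16 for ULU vs UL (log2(fold change) ± SE, adjusted p = 0.152 and 0.116).

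The machinery around the ribosome had other values. The 74 mitochondrial ribosomal protein genes tested had medians of 0.14, 0.21 and 0.06 for UL and then ULU vs control and for ULU vs UL, the order kept below. In ULU vs control 2 of the 74 rose by edgeR, a share no higher than the 2.98% of all genes, and these were AURKAIP1, a small subunit protein of the mitochondrial ribosome (0.56 ± 0.12, adjusted p = 0.0204), and MRPL12 (0.53 ± 0.14, adjusted p = 0.0498). Among 47 translation factors (medians 0.02, 0.11 and 0.11), 3 rose in ULU vs control, beside the same 2.98% of all genes, which were EIF3J, a loosely bound part of initiation factor 3 (0.54 ± 0.10, adjusted p = 0.0122), EEF2K, the kinase that inhibits elongation factor 2 (0.90 ± 0.22, adjusted p = 0.0336), and EIF4G1, the scaffold of the cap-binding complex (0.40 ± 0.11, adjusted p = 0.0484).

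Of 106 ribosome biogenesis genes (medians 0.00, −0.02 and −0.02), 1 passed the adjusted p-value in ULU vs control, beside 2.98% of all genes. This was RIOK2, a kinase of small subunit maturation, which fell (−0.41 ± 0.11, adjusted p = 0.0445). No other member passed the adjusted p-value in any comparison. Among 21 genes of the signalling that controls ribosome production, AKT2 alone passed in ULU vs control (0.76 ± 0.14, adjusted p = 0.00898), beside the same 2.98% of all genes. DEPTOR, an inhibitor of mTOR, had 0.54 ± 0.15 with an adjusted p-value of 0.0523. In UL vs control no gene of these 4 lists passed the adjusted p-value by edgeR, and at an unadjusted p-value under 0.05 there were 13 mitochondrial ribosomal protein genes, 2 translation factors, 6 biogenesis genes and 2 signalling genes, beside 10.8% of all genes. The last 3 of these counts lay below that share. In ULU vs UL none passed either, and the unadjusted counts were 5, 6, 6 and 6 in the same order, again beside 10.8%. DESeq2 on all libraries called 4, 0, 0 and 0 genes of the 4 lists in UL vs control, beside 1.22% of all genes. The DESeq2 counts were 5, 9, 4 and 4 for ULU vs control, beside 7.44% of all genes. They were 1, 2, 1 and 3 for ULU vs UL, beside 1.57%.

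**Figure D5:**
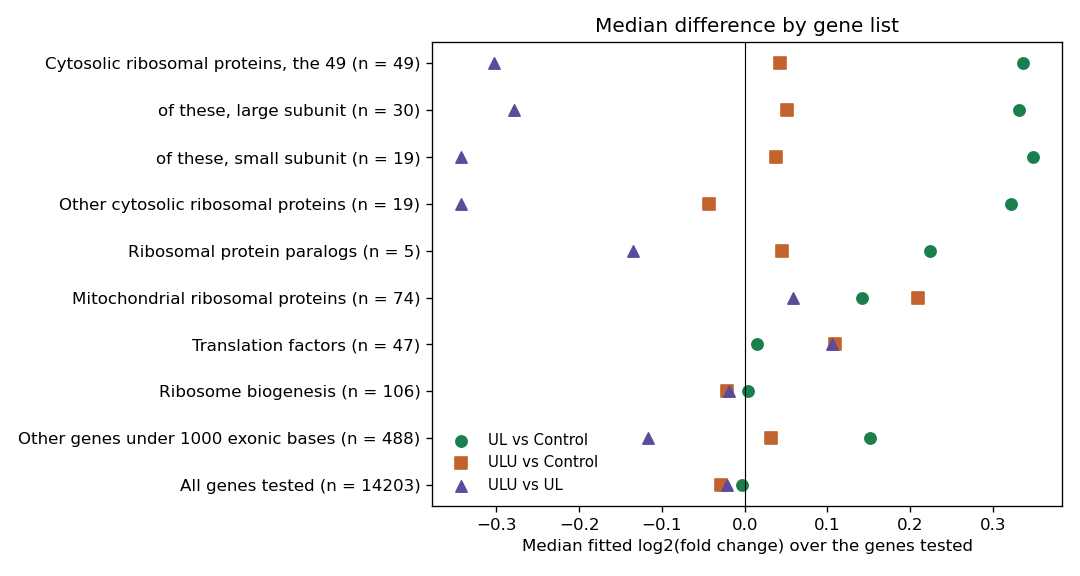
Median fitted log2(fold change) over the tested genes of each list (number of genes in brackets), with circles for UL vs control, squares for ULU vs control and triangles for ULU vs UL. Both lists of cytosolic ribosomal proteins lie near 0.3 in UL vs control and near −0.3 in ULU vs UL, other genes under 1000 exonic bases at 0.15 and −0.12, and biogenesis genes near 0.

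Of the cell type markers, 3 genes passed the adjusted p-value by edgeR, all in ULU vs control, where 2.98% of all genes did. The 10 muscle fibre markers had medians of 0.29, 0.38 and 0.12, and TNNT3 and MYH1 rose in ULU vs control (0.66 ± 0.15 and 0.53 ± 0.13, adjusted p = 0.0280 and 0.0397). Fibroblast markers had medians of −0.22, −0.36 and −0.23, with FBN1 lower in ULU vs control (−0.61 ± 0.16, adjusted p = 0.0485). Leukocyte markers had −0.04, −0.43 and −0.28 and adipocyte markers −0.95, −1.23 and −0.43, and none of their genes passed the adjusted p-value. Medians of the endothelial markers were 0.10, −0.19 and −0.17, of the smooth muscle markers −0.15, −0.10 and −0.02, of the satellite cell markers 0.02, 0.09 and 0.08, of the erythroid markers 0.50, 0.52 and 0.07 and of the proliferation markers −0.08, −0.28 and −0.20, again without a gene past the adjusted p-value. DESeq2 on all libraries called 4 muscle fibre markers and FBN1 in ULU vs control, beside 7.44% of all genes, and no marker in the other comparisons. The part of these cell types in the ribosomal protein values was not tested.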

How the data were processed

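Muscle RNA of 17 piglets was sequenced as single reads. The authors checked reads with FastQC, trimmed them with fastp, aligned them with HISAT2 and counted them with featureCounts, and deposited raw counts per gene without normalization. The file header names featureCounts 2.0.1 and Ensembl annotation 104 of Sscrofa11.1, without strand or multiple placement options, and the submitters' processing notes name Subread 1.5.1 and DESeq2 1.34.0. The deposited table also holds 2 columns of other kinds, the exonic length and the authors' mean of the counts. Of 31908 rows, 15029 were named by identifier and 5149 by position, from the RefSeq gene holding at least 10% of the exonic bases with the best overlap. Among 341 genes nameable both ways, 317 names were the same. The rule for position names was changed once its matches and the resulting counts were known.

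edgeR 4.0.16 in R 4.3.3 was used with TMM factors, filterByExpr (14203 genes kept) and the quasi-likelihood test, in 1 model of all libraries, with Benjamini-Hochberg adjustment over all genes and a threshold of 0.05. Standard errors are the log2(fold change) divided by the square root of F. A prior count of 2 was added for log2 CPM. The test was checked on simulated data. DESeq2 1.42.0, other scalings, filters, naming rules and left-out libraries were alternatives. A level of 3 reads corresponded to 0.130 to 0.195 CPM, which covers counting error only.

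The members and lists were chosen with earlier results of these data known. Named were, in each comparison, the 10 members with the smallest p-values and the 3 highest and 3 lowest log2(fold change) values, the 5 highest and 5 lowest levels per length, genes fixed by role, and from other lists genes among the 3 with the smallest p-values. RPL30 and the members called by DESeq2 outside that rule were named after their values were seen. No sequences were analysed here.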

Additional observations from a re-analysis of the deposited data

Results flagged for a closer look

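In 90 groups of 5 or 6 libraries (28 named members and 2 summaries in each diet), 6 had a highest or lowest library far from the nearest of the others by Dixon's criterion, of which chance gives about 1 in 20 groups. In control, RPS12 was 376.5 CPM in piglet 23 against 269.1 to 309.2 in the others, and RPS27A was 427.7 CPM in piglet 26 against 540.2 to 558.2. In UL, RPS6 was 850.9 CPM in piglet 28 against 612.6 to 694.5. In ULU, RPL26 was 42.8 CPM and RPS19 132.6 CPM in piglet 44, against 59.3 to 63.8 and 174.6 to 181.0 in the others, and RPL8 was 521.0 CPM in piglet 43 against 396.2 to 427.4. UL piglet 28 had the highest median level of the 49 genes, and ULU piglet 44 and control piglet 26 had the lowest within their diets.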

How the results depend on the processing

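No paired analysis was possible because the piglet numbers are not shared between diets. With edgeR, none of the 49 genes passed the adjusted p-value under any alternative scaling, filter, naming rule or left-out library. DESeq2 on the 2 diets called 10 genes in UL vs control, 0 in ULU vs control and 4 in ULU vs UL, and on all libraries 9, 0 and 7. The cause of this difference between tools was not tested. Leaving out 1 library at a time gave medians of 0.26 to 0.38 in UL vs control, −0.00 to 0.11 in ULU vs control and −0.35 to −0.22 in ULU vs UL. All other alternatives gave 0.19 to 0.35, −0.13 to 0.07 and −0.41 to −0.17. Library totals as the only scaling moved the median of all genes by over 0.1 in ULU vs control and ULU vs UL, to −0.21 and −0.13, and there RPS3 (−0.038) and RPS6 (−0.034) changed sign in ULU vs control.

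Counts at an unadjusted p-value under 0.05 in either direction were 20 to 32 in UL vs control when 1 library was left out. They were 1 to 3 in ULU vs control and 16 to 27 in ULU vs UL. The shares of all genes in these fits were 9.04% to 13.5%, 15.7% to 22.4% and 8.31% to 12.2%. Leaving out UL piglets 28 and 32 together, names by identifier only and genes without shared exonic bases were chosen after seeing the data. Without UL piglets 28 and 32 the counts were 10, 2 and 7. The counts fell with the number of genes kept, to 20 of 29 and 16 of 29 in UL vs control and ULU vs UL with at least 50% of the exonic bases in the named gene, to 18 of 25 and 15 of 25 without shared exonic bases, and to 20 of 33 and 0 of 33 in UL vs control and ULU vs control with names by identifier only, since RPL8 was named by position. The shares of all genes beside these counts were 10.8% in UL vs control, 18.9% in ULU vs control and 10.8% in ULU vs UL. In ULU vs control the count was 2 with either tool on the 2 diets, 6 with library totals and 4 without the length trend. The shares of all genes in these fits were 17.7% to 21.7%. The summed share of reads was 2.17%, 2.40% and 1.87% in control, UL and ULU over reads outside the mitochondrial chromosome, and 1.12%, 1.29% and 1.02% in control, UL and ULU with the stricter naming rule. It ranged from 1.84% to 1.87%, 2.03% to 2.16% and 1.59% to 1.74% when 1 library was left out. With at most 37 reads per library, the values of RPL10A are limited by depth. Counting error and the spread between piglets were not compared for the other genes.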
